A study of Mus musculus with 9 samples.

Results

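Cytochrome P450 enzymes oxidise drugs, plant compounds, fatty acids, sterols and retinoids, and UDP-glucuronosyltransferases (UGTs) and sulfotransferases (SULTs) then attach a sugar acid or a sulfate that makes the product easier to excrete. The genes of these families were taken by symbol from a deposited table of colon RNA, as a family prefix (Cyp, Ugt or Sult), a number, a letter and, for most, a second number, so Cyp51 and pseudogenes stayed out. The rule gave 110 of the 36256 genes in the table, which were 81 Cyp, 17 Ugt and 12 Sult genes. P450 enzymes of the endoplasmic reticulum receive electrons from the reductase Por, UGTs use UDP-glucuronic acid made by Ugdh, and SULTs use the sulfate donor PAPS made by Papss1 and Papss2. In the gut wall, absorptive epithelial cells are known as a main site of these enzymes, and the nuclear receptors Nr1i2 (PXR) and Nr1i3 (CAR) and the ligand-activated factor Ahr are known to control several of their genes. Many of the genes lie in tandem clusters of close paralogues.

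Colons of 9 C57BL/6 mice, 3 to a group, gave poly(A) RNA libraries. NC mice were controls. MC mice were modelled with dextran sulfate sodium (DSS) over 9 days, which damages the epithelial lining of the colon, and LRWE mice had the same DSS model and received a Linderae Radix extract (from Lindera aggregata root) at 2.0 g/kg. For the colon segment, age and sex, the sources used here give nothing. The 9 samples include no mice given the extract without DSS. Libraries held 59042063 to 65042857 counts. Values in CPM are counts divided by library size after TMM scaling, a correction for library composition, and they are listed in the order of libraries 1, 2 and 3 of a group. Bulk RNA cannot tell apart fewer cells of a type and less RNA per cell. Coordinates of genes are those of the deposited table, whose build is not named there.

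Several libraries differed within their group, and their values are given before the results. Quality weights, which fall as a library deviates from its group, were lowest in LRWE 2 (0.247), MC 2 (0.385) and LRWE 1 (0.494) and 1.15 to 2.87 in the other 6 libraries. The epithelial marker Epcam was abundant in all libraries (1584, 1716 and 1101 CPM in NC, at 974, 787 and 1138 in MC and at 1343, 1972 and 1714 in LRWE). The distal colon factor Hoxb13 was at 302, 352 and 248 CPM in NC, at 1.18, 61.2 and 9.70 in MC and at 1.79, 0 and 0.260 in LRWE. The distal marker Slc37a2 was at 1042, 867 and 737 CPM in NC, at 5.05, 33.0 and 6.36 in MC and at 1.24, 1.81 and 2.34 in LRWE, so both distal markers were high in all control libraries and far lower in all DSS libraries, with MC 2 the highest of these. In the list of 4 distal markers, 2 fell in MC against NC and 4 fell in LRWE against NC. Proximal Hoxb6 was at 4.11, 4.15 and 4.55 CPM in NC, at 85.5, 11.6 and 46.9 in MC and at 61.2, 151 and 156 in LRWE, and Osr2 was at 1.98, 1.03 and 0.682 CPM in NC, at 148, 2.12 and 37.9 in MC and at 82.1, 244 and 205 in LRWE. Of the 5 proximal markers, 4 (Hoxb5, Hoxb6, Hoxb8 and Osr2) rose and Prdx6 fell in each DSS group against NC. The part that the place of sampling has in the enzyme results was not tested.

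Markers of stromal and immune cells were uneven as well. The 4 fibroblast markers (Col1a1, Dcn, Pdgfra and Lum) summed to 485 to 616 CPM in NC, to 207, 827 and 381 CPM in MC and to 65.8 to 272 CPM in LRWE. The 4 neutrophil markers (S100a8, S100a9, Cxcr2 and Ly6g) summed to 140.1 to 225 CPM in NC, to 17.3, 248 and 64.3 CPM in MC and to 14.4 to 67.1 CPM in LRWE. The fibroblast gene Dcn was at 300.1, 272 and 303 CPM in NC, at 60.5, 440.0 and 142 in MC and at 96.6, 29.7 and 28.7 in LRWE. MC 2 thus had the highest fibroblast and neutrophil sums of all 9 libraries. In NC nearly all of the neutrophil sum was Ly6g (225, 218 and 140 CPM), which had a log2 fold change of -0.93 in MC. S100a8, S100a9 and Cxcr2 went the other way, each higher in MC than in NC with no overlap (7.19, 7.07 and 4.84). The neutrophil sum therefore does not describe these genes. The 4 smooth muscle markers summed to 5879 to 8576 CPM in NC, 4546 to 8854 CPM in MC and 1671 to 4894 CPM in LRWE. No gene of the fibroblast, neutrophil or smooth muscle lists passed in any comparison, and their part in the enzyme results was not tested.

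**Figure D1:**
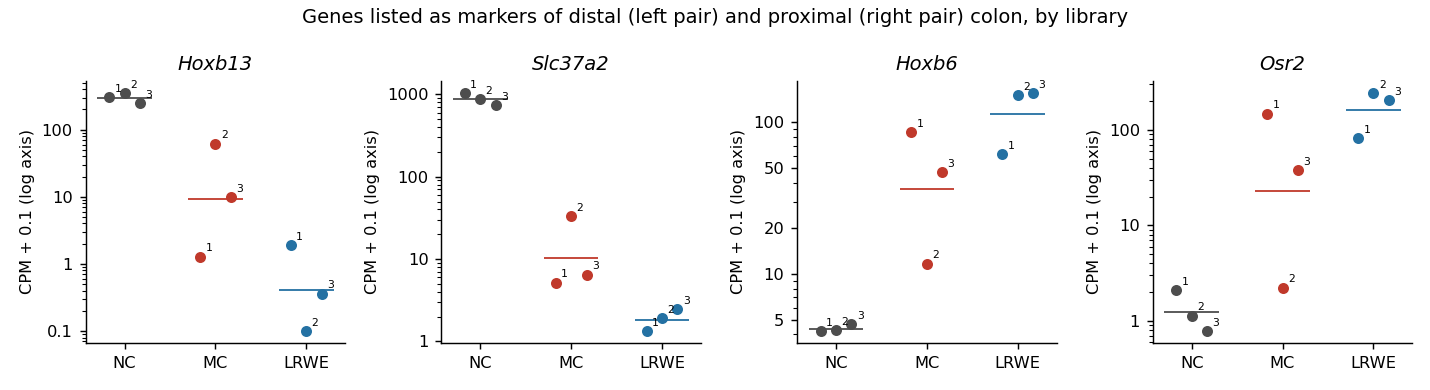
Expression of the distal colon markers Hoxb13 and Slc37a2 and the proximal colon markers Hoxb6 and Osr2 in CPM + 0.1 on log axes. Points are libraries, numbered by replicate, and lines are geometric means of 3 libraries. Hoxb13 lay at 248 to 352 CPM in NC and at 0 to 61.2 CPM in the DSS groups, and Osr2 at 0.682 to 1.98 CPM in NC and at 2.12 to 244 CPM in the DSS groups.

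Hepatocyte transcripts were low but not even across libraries. The 6 hepatocyte markers summed to 24.6 to 55.9 CPM in NC, 2.17 to 3.48 CPM in MC and 1.88 to 3.22 CPM in LRWE. Albumin (Alb) stood at 0.139, 12.9 and 17.2 CPM in NC, at 0.184, 0.167 and 0.133 in MC and at 0.130, 0 and 0.975 in LRWE. The liver P450 genes Cyp4a10 (8, 87 and 208 counts), Cyp4a14 (0, 109 and 62 counts) and Cyp2d11 (0, 69 and 43 counts) had counts in NC alone and did not enter the test. They are named here after their values were seen, and not all P450 genes known from liver followed them. Cyp3a44, known from female mouse liver, rose in LRWE against NC. Transthyretin (Ttr), the largest part of the marker sum, was at 24.3, 29.9 and 31.6 CPM in NC, at 1.23, 1.77 and 1.66 in MC and at 2.08, 1.88 and 1.01 in LRWE. It was even across NC, unlike Alb, and fell in MC (-4.20 ± 0.33, adjusted p = 0.00165) and in LRWE against NC (-4.11 ± 0.33, adjusted p = 0.00129). The source of these transcripts was not tested.

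In control colon, transcripts of a few members made up most of each family when read in FPKM, fragments per length of transcript and per library size. Cyp2d34 had the highest mean level (289.8 ± 51.9 FPKM, mean ± SD, n = 3), followed by Cyp2c55 (248 ± 37.5 FPKM), and these neighbours in the order did not differ beyond their spread. Cyp3a13, Cyp2d12 and Cyp2d10 came next among the P450 genes at 97.4, 96.0 and 91.5 FPKM. Among the SULT genes, Sult1d1 (138 ± 29.8 FPKM), Sult1b1 (107 ± 16.7 FPKM) and Sult1a1 (87.7 ± 6.75 FPKM) led. Ugt2b34 (75.1 ± 8.53 FPKM) was the most abundant UGT and Ugt1a1 (24.6 ± 9.31 FPKM) the next. After filtering low counts, 72 members could be tested (52 Cyp, 12 Ugt and 8 Sult) among 21767 genes, 38 could not, and 4 of those (Cyp2b19, Cyp2d40, Cyp2j12 and Sult1e1) had no count in any library.

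Summed FPKM of the families gave the same picture of uneven DSS libraries. Cyp genes summed to 1181, 1462 and 1102 FPKM in NC, to 1483, 598 and 1194 in MC and to 1626, 2718 and 2212 in LRWE. Ugt genes summed to 124, 139 and 114 FPKM in NC, to 228, 32.8 and 161 in MC and to 236, 418 and 469 in LRWE. The Sult sums were 384, 383 and 294 FPKM in NC, then 314, 157 and 244 in MC and then 317, 482 and 451 in LRWE. MC 2 had the lowest sum of all 9 libraries in each of the 3 families, and the summed CPM of the 8 epithelial markers was also lowest in MC 2 (5518 CPM, against 7378 to 15866 CPM elsewhere).

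The comparison of MC with NC asks which of these genes differ after DSS. By edgeR's quasi-likelihood test, 2 members (Cyp2c65 and Cyp4x1) rose, 9 fell (Cyp27a1, Cyp2c68, Cyp2d9, Cyp2d10, Cyp2d12, Cyp2d13, Cyp4f16, Cyp4f39 and Ugt2b35) and 61 did not pass at adjusted p under 0.05. The 11 called members were 15.3% of those tested, beside 6.37% of all genes tested. By direction, the background was 2.84% higher and 3.53% lower. The median fitted log2 fold change of tested members was -0.44, and that of all genes tested was -0.01. Libraries of the 2 groups did not overlap in 7 members that were higher and 24 that were lower in MC, beside 19.5% and 20.1% of all genes tested.

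LRWE against NC, which sets DSS with the extract against no DSS, had 9 members higher (Cyp2c55, Cyp2c65, Cyp2c66, Cyp2d26, Cyp2j6, Cyp3a44, Cyp4b1, Ugt2b5 and Ugt8a) and 11 lower (Cyp11a1, Cyp27a1, Cyp2c68, Cyp2d9, Cyp2d10, Cyp2d12, Cyp2d13, Cyp2d34, Cyp2f2, Cyp4f39 and Sult5a1). These 20 were 27.8% of the tested members, beside a background of 10.0% (6.04% higher and 3.97% lower). The median fitted log2 fold change was -0.02 over tested members and -0.05 over all genes tested. The groups did not overlap in 19 members that were higher in LRWE and 21 that were lower, beside 16.6% and 20.5% of all genes tested. MC and LRWE were set against the same 3 NC libraries, so the values of the 2 comparisons are given side by side and share their control spread.

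**Figure D2:**
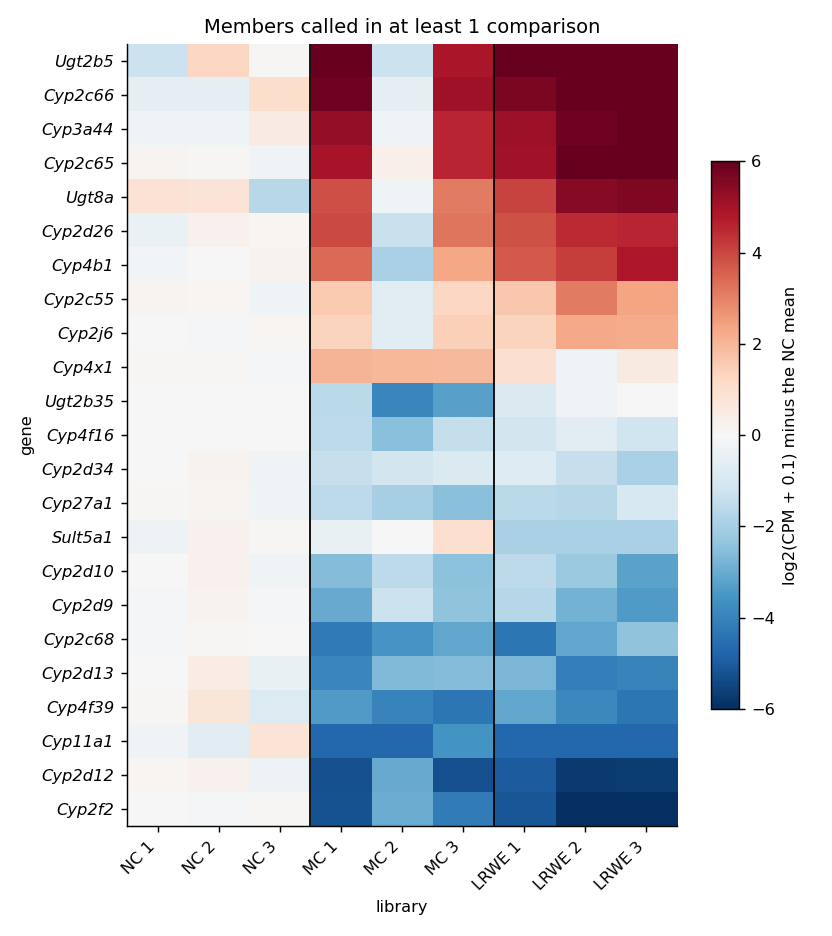
Level of the 23 members called in at least 1 comparison, as log2(CPM + 0.1) minus the NC mean of the gene, in the 9 libraries. Colours are cut at the ends of the scale. MC 2 lies near or under the NC libraries for Ugt2b5, Cyp2c66, Cyp3a44, Ugt8a, Cyp2d26, Cyp4b1, Cyp2c55 and Cyp2j6, where MC 1 and MC 3 lie above them.

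LRWE against MC is the comparison that bears on the extract within DSS mice. No member passed, nor did any of the 21767 genes, by edgeR's quasi-likelihood test (a background of 0%), and the smallest adjusted p of a member was 0.164. At an unadjusted p under 0.05 there were 20 members and 5139 genes (23.6%). DESeq2 called 8 members (11.1% of those tested, beside 9.19% of all genes), 5 higher and 3 lower beside 4.72% and 4.47% of all genes. limma-voom with quality weights called 9 (12.5%, beside 13.3%), 5 higher and 4 lower beside 5.29% and 8.04%. Without LRWE 1 edgeR called 6 members (7.79%, beside 10.6%), 2 higher and 4 lower beside 4.13% and 6.46%. These shares of members were near the background. The groups did not overlap in 16 members that were higher in LRWE and 4 that were lower, beside 14.3% and 14.1% of all genes tested (28.4% either way). The median fitted log2 fold change of the tested members was 0.48, and that of all genes was -0.03. Beside this, 6 of the 8 epithelial markers (Epcam, Cdh1, Krt8, Cdx1, Cdx2 and Lgals4) were higher in LRWE than in MC with no overlap, and the list's median was 0.81. In the list of 5 differentiated colonocyte markers (Car1, Car4, Slc26a3, Aqp8 and Ceacam20), LRWE and MC overlapped in every gene, and the median was 0.13. The only calls of that list were against NC. Slc26a3 fell in both DSS groups (mean 2178 CPM in NC, 248 in MC and 273 in LRWE), and Car1 rose in LRWE (648 CPM in NC and 9767 in LRWE). The list medians were -1.68 over the 4 fibroblast, -0.88 over the 4 smooth muscle and -1.77 over the 4 neutrophil markers. For colon position, the medians were -4.08 over the 4 distal and 1.25 over the 5 proximal markers. Of the distal markers, 3 were lower in LRWE than in MC with no overlap. Of the proximal markers, 1 (Hoxb5) was lower with no overlap, and the others overlapped. None of these markers passed in LRWE against MC, and their part in the members' shift was not tested.

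**Figure D3:**
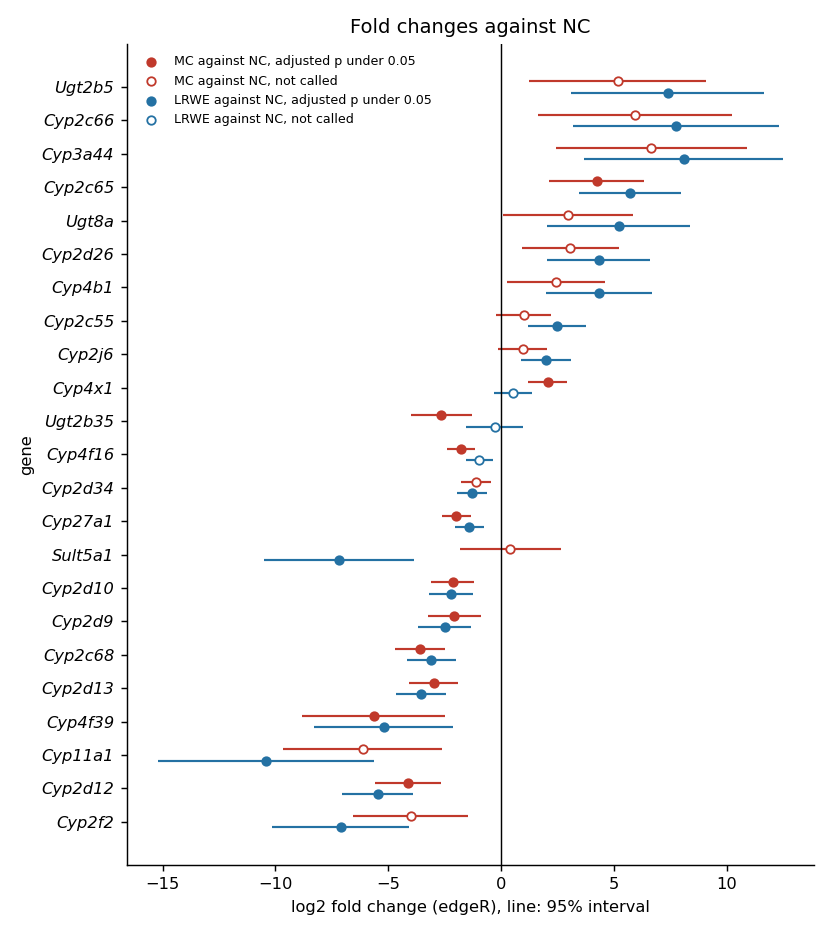
Fitted log2 fold changes against NC of the 23 members called in at least 1 comparison, for MC (red) and LRWE (blue), with 95% intervals. Filled points passed at adjusted p under 0.05. Cyp2c68 stood at -3.58 in MC and -3.09 in LRWE, and Cyp2c65 at 4.23 and 5.72. Both comparisons use the same 3 NC libraries.

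The Cyp2c cluster held both directions within a single locus. It spans 38995463 to 40175777 on chromosome 19 with 11 members, of which 7 were tested. Cyp2c enzymes hydroxylate and epoxidise arachidonic acid and oxidise drugs, and Cyp2c55 is known from mouse as a PXR- and CAR-inducible enzyme that forms 19-HETE. Cyp2c65 (ENSMUSG00000067231, chromosome 19, 39049459 to 39082388) was at 9.63, 8.98 and 7.27 CPM in NC, at 269, 10.7 and 207 in MC and at 285, 539 and 538 in LRWE. All MC libraries lay above all NC libraries, MC 2 only just, and all LRWE libraries lay above all MC libraries. Cyp2c65 rose in MC (log2 fold change 4.23 ± 0.93 (SE), adjusted p = 0.0326) and in LRWE against NC (5.72 ± 0.998, adjusted p = 0.0118). Cyp2c66 was at 0, 0 and 0.206 CPM in NC, at 8.14, 0 and 4.90 in MC and at 7.22, 18.8 and 19.7 in LRWE, so it was near 0 in NC and at 0 in MC 2. It rose in LRWE against NC (7.74 ± 2.02, adjusted p = 0.0444) and did not pass in MC (5.93 ± 1.897, adjusted p = 0.0964). Cyp2c55, the most abundant of the cluster per length, was at 599, 581 and 444 CPM in NC, at 1613, 343 and 1289 in MC and at 1637, 4673 and 2768 in LRWE. Its MC libraries lay on both sides of NC and its LRWE libraries all lay above both other groups. Cyp2c55 rose in LRWE against NC (2.48 ± 0.57, adjusted p = 0.0292), with 0.999 ± 0.54 in MC (adjusted p = 0.303) and 1.48 ± 0.55 for LRWE against MC (adjusted p = 0.175), which DESeq2 called higher.

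Cyp2c68 (ENSMUSG00000074882, chromosome 19, 39677278 to 39729498), in the same cluster, went the other way. Cyp2c68 was at 113, 131 and 127 CPM in NC, at 6.31, 10.4 and 14.2 in MC and at 5.95, 14.2 and 23.3 in LRWE. Every DSS library lay far below every NC library, and MC and LRWE overlapped. Cyp2c68 fell in MC (-3.58 ± 0.49, adjusted p = 0.00679) and in LRWE against NC (-3.09 ± 0.47, adjusted p = 0.00770). Both calls of Cyp2c68 held in each of the 9 fits that left out 1 library. The call of Cyp2c65 in MC was lost when NC 1, NC 2, NC 3, MC 1, MC 3 or LRWE 3 was left out (adjusted p up to 0.133), and that in LRWE when NC 1, NC 2 or NC 3 was left out (adjusted p up to 0.0643). Cyp2c66 lost its call when NC 1, NC 2, NC 3, MC 1, MC 3, LRWE 2 or LRWE 3 was left out (adjusted p up to 0.1497) and Cyp2c55 when NC 1, NC 2, NC 3, LRWE 2 or LRWE 3 was left out (adjusted p up to 0.117).

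The start regions of Cyp2c65 and Cyp2c68 are shown because these genes of a single cluster moved in opposite directions. Each window holds 250 bases before and 50 after the gene start (RefSeq, GRCm38.p6), and capitals mark motifs found on either strand.
Cyp2c65: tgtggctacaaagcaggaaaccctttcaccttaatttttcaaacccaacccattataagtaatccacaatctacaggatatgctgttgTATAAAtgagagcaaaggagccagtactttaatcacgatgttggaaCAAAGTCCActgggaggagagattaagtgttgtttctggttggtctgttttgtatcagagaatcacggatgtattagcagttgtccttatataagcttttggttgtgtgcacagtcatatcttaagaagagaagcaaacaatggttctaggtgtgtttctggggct
Cyp2c68: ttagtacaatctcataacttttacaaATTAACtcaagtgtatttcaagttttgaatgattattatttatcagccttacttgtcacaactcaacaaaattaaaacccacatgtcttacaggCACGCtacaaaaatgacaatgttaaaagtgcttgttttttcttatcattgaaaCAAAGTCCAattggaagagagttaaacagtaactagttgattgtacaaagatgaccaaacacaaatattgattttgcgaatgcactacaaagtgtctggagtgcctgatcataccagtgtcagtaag
The Cyp2c65 window is chr19:39060756-39061055 on the plus strand. It has TATAAA, the letters of a TATA box core, at position -162 and the letters CAAAGTCCA, a sequence bound by HNF4A, at -116. Nearer the start lies tatataa, which is not an exact match to TATAAA and is unmarked. The marking therefore does not give the place of a TATA box in this window. The Cyp2c68 window is chr19:39741052-39741351 on the minus strand, with CAAAGTCCA at -77, the Ahr core GCGTG at -130 and the HNF1 motif GTTAAT at -224. CAAAGTCCA was in 0.475% of 32851 promoter windows of the table and in 9 of 101 windows of members (8.91%), 6 of which belonged to the Cyp2c cluster (Cyp2c40, Cyp2c65, Cyp2c67, Cyp2c68, Cyp2c69 and Cyp2c70). TATAAA was in 13.6% of all windows and 32.7% of member windows, GCGTG in 32.4% and 22.8%, and GTTAAT in 7.1% and 14.9%. The PXR and CAR motif AGTTCA was in 14.0% and 16.8%. In a global alignment the Cyp2c65 and Cyp2c68 windows were identical at 46.8% of alignment columns, gaps included. A match is only a match of letters, and binding was not measured.

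Most called genes of the Cyp2d cluster fell, and a single one rose. It spans 82254728 to 82678495 on chromosome 15 and held 9 members, 7 of them tested. Of these, 4 fell in MC and 5 fell in LRWE against NC, and Cyp2d26 rose in LRWE. Of all genes tested, 3.53% fell in MC, and 3.97% fell and 6.04% rose in LRWE against NC. Cyp2d enzymes oxidise basic drugs and steroids, and Cyp2d9 is known from mouse liver as a male-predominant steroid hydroxylase. Cyp2d12 (ENSMUSG00000096852, chromosome 15, 82439273 to 82444604) was at 429.6, 482 and 310.5 CPM in NC, at 10.3, 49.7 and 10.2 in MC and at 12.6, 7.50 and 7.65 in LRWE. Its NC libraries lay above all DSS libraries, with MC 2 the highest of the latter. Cyp2d12 fell in MC (-4.12 ± 0.65, adjusted p = 0.0108) and in LRWE against NC (-5.46 ± 0.70, adjusted p = 0.00467). Cyp2d13 was at 138, 193 and 104 CPM in NC, at 9.34, 22.5 and 23.0 in MC and at 20.6, 8.07 and 8.67 in LRWE, again with no overlap between NC and the DSS groups. Cyp2d13 fell in MC (-2.99 ± 0.48, adjusted p = 0.0113) and in LRWE against NC (-3.54 ± 0.49, adjusted p = 0.00558).

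Cyp2d10 and Cyp2d9 had smaller fitted falls than these 2 genes. Cyp2d10 was at 166, 194 and 134 CPM in NC, at 26.5, 55.1 and 29.8 in MC and at 54.9, 34.5 and 17.4 in LRWE, and Cyp2d9 at 166, 208 and 162 CPM in NC, at 22.1, 72.3 and 33.3 in MC and at 53.7, 24.6 and 16.8 in LRWE. In both genes NC did not overlap the DSS groups, which overlapped each other. Cyp2d10 fell in MC (-2.15 ± 0.43, adjusted p = 0.0226) and in LRWE against NC (-2.21 ± 0.43, adjusted p = 0.0165). Cyp2d9 fell likewise in MC (-2.07 ± 0.51, adjusted p = 0.0472) and in LRWE against NC (-2.49 ± 0.52, adjusted p = 0.0216). Cyp2d34, the most abundant P450 transcript per length in NC, was at 871, 1016 and 749 CPM in NC, at 333, 407 and 471 in MC and at 511, 336 and 228 in LRWE. Cyp2d34 fell in LRWE against NC (-1.29 ± 0.29, adjusted p = 0.0278) and had -1.12 ± 0.29 in MC (adjusted p = 0.0539). Cyp2d26 (ENSMUSG00000022445, chromosome 15, 82674302 to 82678495), at the far end of the cluster, was at 6.68, 10.7 and 9.49 CPM in NC, at 138, 3.45 and 81.7 in MC and at 128, 199.8 and 208 in LRWE. Its LRWE libraries lay above NC, while MC 1 and MC 3 lay above and MC 2 below all NC libraries. Cyp2d26 rose in LRWE against NC (4.31 ± 1.01, adjusted p = 0.0310), with 3.05 ± 0.95 in MC (adjusted p = 0.0899).

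In the Cyp2d cluster, the calls of Cyp2d12 in both comparisons and of Cyp2d13 in LRWE held in all 9 fits that left out 1 library. Cyp2d13 lost its call in MC when NC 2 was left out (adjusted p up to 0.0552). For MC, Cyp2d10 lost its call when NC 1, NC 2, NC 3, MC 1 or MC 3 was left out (adjusted p up to 0.0934) and Cyp2d9 when NC 1, NC 2, NC 3, MC 1, MC 3 or LRWE 3 was left out (adjusted p up to 0.153). For LRWE against NC, Cyp2d10 lost its call when NC 1 or NC 2 was left out (adjusted p up to 0.0643), Cyp2d9 when NC 1, NC 2, NC 3, LRWE 2 or LRWE 3 was left out (adjusted p up to 0.0764), Cyp2d34 when NC 1, NC 2, NC 3, LRWE 2 or LRWE 3 was left out (adjusted p up to 0.0987) and Cyp2d26 when NC 1, NC 2, NC 3, MC 3, LRWE 2 or LRWE 3 was left out (adjusted p up to 0.122). Without MC 2, Cyp2d26 rose in MC (adjusted p = 0.00140).

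The start regions of Cyp2d10 and Cyp2d26 are shown because these genes of a single cluster were called in opposite directions, with the same window and marking as above.
Cyp2d10: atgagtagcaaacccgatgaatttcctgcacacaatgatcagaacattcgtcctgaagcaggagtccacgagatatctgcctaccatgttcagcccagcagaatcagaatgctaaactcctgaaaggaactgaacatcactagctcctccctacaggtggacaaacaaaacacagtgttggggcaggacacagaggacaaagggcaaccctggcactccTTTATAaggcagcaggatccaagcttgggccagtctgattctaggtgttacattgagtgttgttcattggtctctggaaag
Cyp2d26: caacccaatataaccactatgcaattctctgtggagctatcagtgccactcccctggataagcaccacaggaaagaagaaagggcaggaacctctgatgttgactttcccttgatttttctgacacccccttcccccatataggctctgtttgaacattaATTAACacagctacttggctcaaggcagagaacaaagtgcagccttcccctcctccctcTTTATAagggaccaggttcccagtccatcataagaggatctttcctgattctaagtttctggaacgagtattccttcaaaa
Cyp2d10 lies in chr15:82407145-82407444 on the minus strand and has TATAAA at -31. Cyp2d26 lies in chr15:82794196-82794495 on the minus strand, with TATAAA at the same position and GTTAAT at -90. These windows were identical at 50.3% of alignment columns, gaps included, and those of Cyp2d9 and Cyp2d10, which fell together, at 82.9%.

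**Figure D4:**
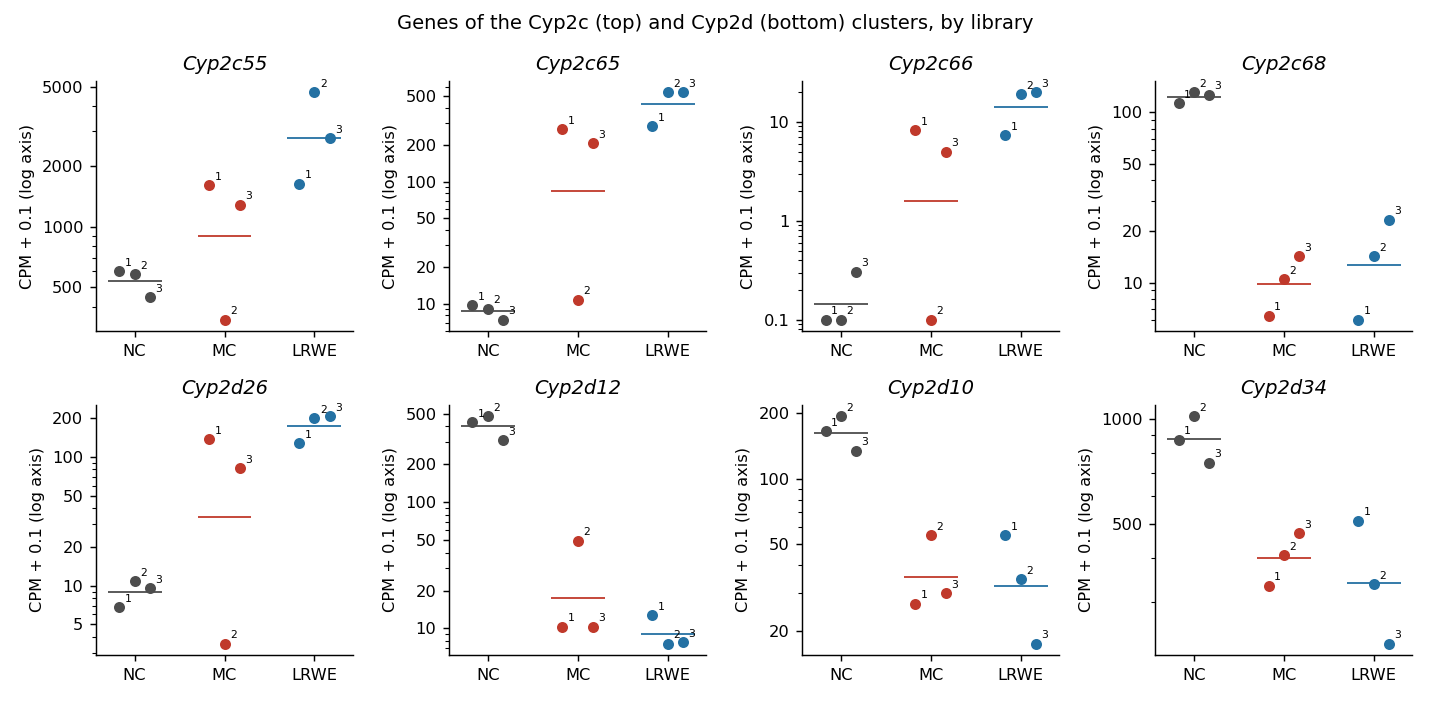
Expression of 4 genes of the Cyp2c cluster (top) and 4 of the Cyp2d cluster (bottom) in CPM + 0.1 on log axes. Points are libraries, numbered by replicate, and lines are geometric means of 3 libraries. Cyp2c65 and Cyp2d26 stood at 7.27 to 9.63 and 6.68 to 10.7 CPM in NC and at 285 to 539 and 128 to 208 CPM in LRWE, and Cyp2c68 and Cyp2d12 stood lower in every DSS library than in any NC library.

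Reads shared between paralogues could shift values within these clusters, since the read length and the handling of such reads are not given in the sources used here. In GENCODE M21 transcripts, the share of 100-base windows also found in another gene was 19.8% for Cyp2c68 (shared with Cyp2c40, Cyp2c67 and Cyp2c69), 9.34% for Cyp2c66 and 7.82% for Cyp2c65 (shared with each other). It was 14.8% for Cyp2d10 (shared with Cyp2d9 and Cyp2d11), 9.86% for Cyp2d9, 3.79% for Cyp2d12 and 0.375% for Cyp2d26. Among all members with a transcript (109), 50 had a shared window and 20 had over 10% of windows shared. Values of Cyp2c68, Cyp2d10, Cyp2d9 and Cyp2c66 are uncertain for this reason. These shares do not bound the error of a value, which also depends on the level of the paralogue. Cyp2c66 was far below Cyp2c65 in every library, and the part of shared reads in its values and its call was not tested.

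Of the other Cyp2 genes, Cyp2f2, known from lung club cells as the enzyme that activates naphthalene, had the lowest fitted fold change of the tested Cyp2 genes in LRWE against NC. Cyp2f2 was at 12.8, 11.4 and 13.3 CPM in NC, at 0.230, 1.49 and 0.581 in MC and at 0.260, 0 and 0 in LRWE, with every DSS library below every NC library. It fell in LRWE against NC (-7.11 ± 1.34, adjusted p = 0.0153), with -4.02 ± 1.13 in MC (adjusted p = 0.0683). For LRWE against MC it did not pass (adjusted p = 0.179), and DESeq2, limma-voom with quality weights and edgeR without LRWE 1 called it lower. Cyp2j6, of a subfamily that epoxidises arachidonic acid, was at 31.9, 30.6 and 34.7 CPM in NC, at 80.6, 20.0 and 87.4 in MC and at 81.0, 157 and 149 in LRWE. It rose in LRWE against NC (1.99 ± 0.49, adjusted p = 0.0366), and its MC libraries lay on both sides of NC (0.95 ± 0.48, adjusted p = 0.261). Cyp2u1, a fatty acid hydroxylase, was at 1.85, 1.69 and 2.89 CPM in NC, at 2.92, 3.26 and 4.24 in MC and at 1.35, 0.610 and 1.85 in LRWE. Its LRWE libraries all lay below its MC libraries, with -1.45 ± 0.47 (adjusted p = 0.164), and DESeq2 called it lower. Cyp2e1, which oxidises ethanol, was at 1.43, 0.861 and 14.7 CPM in NC, at 0.783, 0 and 1.36 in MC and at 7.16, 3.99 and 8.84 in LRWE, a spread within NC wider than the difference of LRWE from NC (0.23 ± 1.31, adjusted p = 0.935). Cyp2f2 lost its call when NC 1, NC 2 or NC 3 was left out (adjusted p up to 0.0595) and Cyp2j6 when NC 1, NC 2, NC 3, MC 1, LRWE 2 or LRWE 3 was left out (adjusted p up to 0.137).

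Over the whole Cyp2 family, 26 of 42 members were tested. In MC 1 rose and 5 fell, and in LRWE against NC 5 rose and 7 fell. These were 23.1% and 46.2% of the tested Cyp2 members, beside 6.37% and 10.0% of all genes tested. The family's median fitted log2 fold change was -1.41 in MC and -0.66 in LRWE against NC. For LRWE against MC it was 0.01, with no member called.

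The Cyp1 genes, classical Ahr targets, were scarce. Cyp1a1 had 0.0217 to 0.222 CPM as a group mean and was not tested. Cyp1b1, which hydroxylates oestradiol, was at 0.696, 0.308 and 0.317 CPM in NC, at 2.14, 3.56 and 0.698 in MC and at 1.48, 0.240 and 1.06 in LRWE. All MC libraries lay above all NC libraries, MC 3 by a very small margin, and the difference did not pass (2.27 ± 0.83, adjusted p = 0.134).

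Of the Cyp3a genes, which oxidise drugs and steroids under PXR control, Cyp3a13 was the abundant form. Cyp3a13 was at 312, 369.6 and 262 CPM in NC, at 249, 50.9 and 179 in MC and at 294, 536 and 538 in LRWE. MC lay below NC, MC 2 the lowest, and LRWE lay above MC. Neither difference passed (-0.98 ± 0.49, adjusted p = 0.263 in MC and 1.51 ± 0.50, adjusted p = 0.165 for LRWE against MC), and DESeq2 and limma-voom with quality weights called the second one higher. Cyp3a44, known from female mouse liver, was at 0, 0 and 0.0635 CPM in NC, at 4.39, 0 and 2.71 in MC and at 3.99, 6.58 and 8.53 in LRWE. It rose in LRWE against NC (8.08 ± 1.95, adjusted p = 0.0346) from 4 counts in all of NC, and was at 0 in MC 2 (6.66 ± 1.87 in MC, adjusted p = 0.0686). The call of Cyp3a44 was lost when NC 1, NC 2, NC 3, MC 3, LRWE 2 or LRWE 3 was left out (adjusted p up to 0.133).

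The Cyp4 genes hydroxylate the end of fatty acid and eicosanoid chains. Of 15 members, 11 were tested, of which 1 rose and 2 fell in MC and 1 rose and 1 fell in LRWE against NC. These were 27.3% and 18.2% of the tested Cyp4 members, beside 6.37% and 10.0% of all genes tested. Cyp4f16 (ENSMUSG00000048440, chromosome 17, 32755532 to 32770772) was at 180.4, 184 and 174 CPM in NC, at 60.1, 31.0 and 66.9 in MC and at 84.2, 112 and 78.4 in LRWE. The 3 groups did not overlap, with NC highest, LRWE next and MC lowest. Cyp4f16 fell in MC (-1.77 ± 0.28, adjusted p = 0.0102), a call held in all 9 fits that left out 1 library. It had -0.97 ± 0.27 in LRWE against NC (adjusted p = 0.0543) and 0.80 ± 0.27 for LRWE against MC (adjusted p = 0.167). Cyp4f16 shares 9.8% of its 100-base windows with Cyp4f37 and Cyp4f17. Cyp4f39, the mouse counterpart of a human enzyme that makes very long acyl chains for skin lipids, was at 2.02, 3.29 and 1.06 CPM in NC, at 0.0922, 0.0278 and 0 in MC and at 0.130, 0.0369 and 0 in LRWE. It fell in MC (-5.65 ± 1.40, adjusted p = 0.0472) and in LRWE against NC (-5.20 ± 1.36, adjusted p = 0.0451).

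Cyp4x1, whose human form epoxidises the endocannabinoid anandamide, was at 1.24, 1.25 and 1.06 CPM in NC, at 5.10, 5.01 and 4.80 in MC and at 2.41, 1.02 and 1.74 in LRWE. MC lay above both other groups with no overlap, and LRWE overlapped NC. Cyp4x1 rose in MC (2.07 ± 0.38, adjusted p = 0.0183), and was lower in LRWE than in MC without passing (-1.53 ± 0.38, adjusted p = 0.164). DESeq2, limma-voom with quality weights and edgeR without LRWE 1 called that second difference lower. Cyp4b1, an omega-hydroxylase of fatty acids, was at 2.54, 2.84 and 3.38 CPM in NC, at 31.9, 0.682 and 14.8 in MC and at 38.9, 53.8 and 85.3 in LRWE. It rose in LRWE against NC (4.34 ± 1.04, adjusted p = 0.0338) and had 2.43 ± 0.96 in MC (adjusted p = 0.161), where MC 2 lay below all NC libraries. Cyp4f14, which inactivates leukotriene B4 in mouse, was at 60.8, 112 and 106 CPM in NC, at 97.8, 27.6 and 142 in MC and at 177, 170.5 and 205 in LRWE. All LRWE libraries of Cyp4f14 lay above both other groups, and no comparison passed (1.05 ± 0.49 for LRWE against MC, adjusted p = 0.229).

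Among the Cyp4 calls in MC, Cyp4x1 was lost when NC 1, NC 2, NC 3, MC 1 or MC 3 was left out (adjusted p up to 0.0946) and Cyp4f39 when NC 1, NC 2, NC 3, MC 1, MC 2 or MC 3 was left out (adjusted p up to 0.183). In LRWE against NC, Cyp4f39 was lost when NC 1, NC 2, NC 3, LRWE 2 or LRWE 3 was left out (adjusted p up to 0.159) and Cyp4b1 when NC 1, NC 2, NC 3, MC 3, LRWE 2 or LRWE 3 was left out (adjusted p up to 0.130). Without MC 2, Cyp4b1 rose in MC (adjusted p = 0.00699).

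Among genes of cholesterol and bile acid metabolism, Cyp27a1, the mitochondrial sterol 27-hydroxylase, fell. Cyp27a1 (ENSMUSG00000026170, chromosome 1, 74752733 to 74777051) was at 135, 146 and 108 CPM in NC, at 43.4, 32.5 and 22.3 in MC and at 41.6, 38.9 and 65.4 in LRWE. NC lay above both DSS groups with no overlap. It fell in MC (-1.98 ± 0.29, adjusted p = 0.00806), in all 9 fits that left out 1 library, and in LRWE against NC (-1.41 ± 0.28, adjusted p = 0.0188), a call lost when NC 1, NC 2 or LRWE 2 was left out (adjusted p up to 0.0738). The oxysterol 7-alpha-hydroxylase Cyp7b1 was at 2.49, 1.29 and 2.06 CPM in NC, at 0.860, 7.65 and 1.64 in MC and at 1.58, 0.222 and 1.84 in LRWE, and MC 2 alone stood above all other libraries. No comparison of Cyp7b1 passed (0.80 ± 0.91 in MC, adjusted p = 0.650). The oxysterol hydroxylase Cyp39a1 is named here after its values were seen. For Cyp39a1, limma-voom with quality weights alone called LRWE higher than MC, where edgeR gave 0.58 ± 0.23 (adjusted p = 0.184). In all, 5 members of this group were tested and 1 fell in each comparison with NC (20.0% each, beside 6.37% and 10.0% of all genes tested).

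Cyp11a1, which cleaves the cholesterol side chain in the first step of steroid synthesis, was nearly absent from DSS libraries. Cyp11a1 was at 2.19, 1.61 and 4.46 CPM in NC, at 0, 0 and 0.116 in MC and at 0 in each library of LRWE. In MC only MC 3 had any count, and LRWE had none. Its level in LRWE was at least 162-fold lower than in NC, with a floor of 3 counts over the group (adjusted p = 0.0249), a call lost when NC 1, NC 2, NC 3 or LRWE 3 was left out (adjusted p up to 0.0947). In MC it had -6.13 ± 1.49 (adjusted p = 0.0583). The other 3 genes of steroid hormone synthesis in the table were not tested.

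The vitamin D and retinoid genes were scarce, and none of the 3 tested passed. Cyp27b1, which makes active vitamin D, had at most 0.317 CPM in any library, and Cyp2r1, the 25-hydroxylase, at most 1.08 CPM. Cyp24a1, which breaks vitamin D down, had counts in LRWE 3 alone (0.601 CPM) and was not tested. Cyp26b1, which clears retinoic acid, was at 2.35, 1.25 and 2.05 CPM in NC, at 1.32, 2.55 and 0.947 in MC and at 1.77, 0 and 0.552 in LRWE, and groups overlapped. The 95% interval of its log2 fold change in MC ran from -2.85 to 2.39, too wide to tell a fall from a rise.

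Among the 17 UGT genes, 12 were tested, with 1 lower in MC (Ugt2b35) and 2 higher in LRWE against NC (Ugt2b5 and Ugt8a). These were 8.33% and 16.7% of the tested UGT genes, beside 6.37% and 10.0% of all genes tested. The share in MC was thus near the background. Ugt2b enzymes conjugate steroids, bile acids and drugs. Ugt2b35 (ENSMUSG00000035811, chromosome 5, 87148719 to 87161134) was at 8.95, 8.86 and 8.78 CPM in NC, at 2.84, 0.501 and 0.847 in MC and at 4.88, 7.68 and 9.08 in LRWE. The NC libraries were nearly equal, MC lay below them with no overlap, and LRWE lay above MC and reached the NC level in LRWE 3. Ugt2b35 fell in MC (-2.66 ± 0.60, adjusted p = 0.0345), a call lost when NC 1, NC 2, NC 3, MC 2, MC 3 or LRWE 3 was left out (adjusted p up to 0.114). For LRWE against MC it had 2.37 ± 0.59 (adjusted p = 0.164), and DESeq2, limma-voom with quality weights and edgeR without LRWE 1 called it higher. Ugt2b5 was at 0, 0.477 and 0.159 CPM in NC, at 16.1, 0 and 7.12 in MC and at 17.9, 46.1 and 44.2 in LRWE, so MC 2 had none while MC 1 and MC 3 lay above all NC libraries. It rose in LRWE against NC (7.37 ± 1.88, adjusted p = 0.0414), and 24.7% of its 100-base windows also occur in Ugt2b38 or Ugt2b37. Ugt2b34, the most abundant UGT per length in NC, was at 383, 374 and 307 CPM in NC, at 269, 56.6 and 219 in MC and at 256, 511 and 538 in LRWE. Its MC libraries lay below NC, and neither that difference (-0.97 ± 0.50, adjusted p = 0.280) nor LRWE against MC (1.26 ± 0.50, adjusted p = 0.188) passed.

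Ugt8a, which makes galactosylceramide and is not a drug-conjugating enzyme, was at 0.487, 0.446 and 0 CPM in NC, at 4.50, 0.167 and 2.62 in MC and at 5.22, 14.1 and 15.3 in LRWE. All LRWE libraries lay above both other groups, and it rose in LRWE against NC (5.21 ± 1.40, adjusted p = 0.0484). The calls of Ugt8a and Ugt2b5 each ended when NC 1, NC 2, NC 3, MC 1, MC 3, LRWE 2 or LRWE 3 was left out, with adjusted p up to 0.145 and 0.152. Ugt1a1, the bilirubin-conjugating enzyme, was at 86.8, 58.2 and 36.5 CPM in NC, at 222, 15.9 and 207 in MC and at 272, 604 and 586 in LRWE. LRWE lay above both other groups, and neither LRWE against NC (3.01 ± 0.83, adjusted p = 0.0522) nor LRWE against MC (1.72 ± 0.79, adjusted p = 0.224) passed. Genes of the Ugt1a locus share their last exons, and 57.2% of Ugt1a1, 68.8% of Ugt1a7c and 100% of Ugt1a6a windows of 100 bases occur in another gene. Values of Ugt1a1, Ugt1a6a (mean 26.2, 73.4 and 189 CPM in NC, MC and LRWE) and Ugt1a7c (76.0, 49.2 and 162 CPM) are therefore uncertain.

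**Figure D5:**
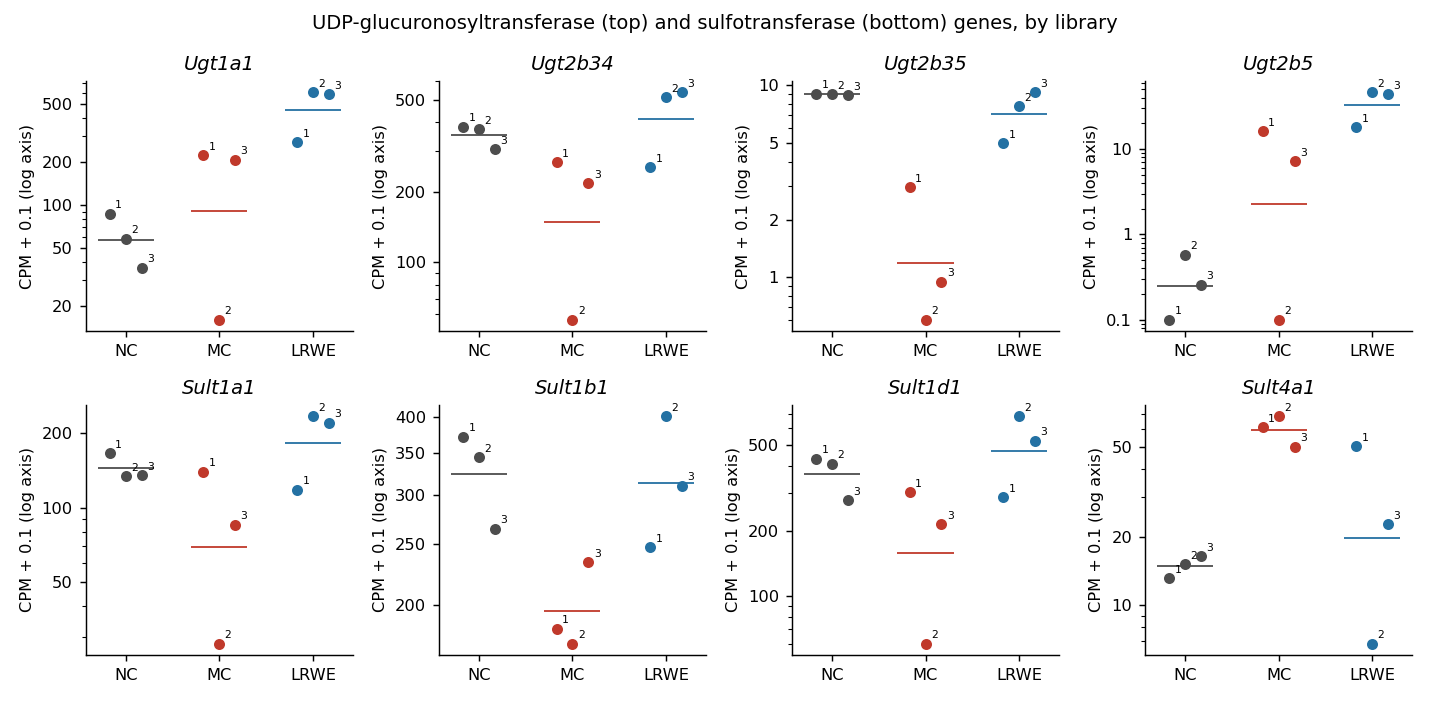
Expression of 4 UGT genes (top) and 4 SULT genes (bottom) in CPM + 0.1 on log axes. Points are libraries, numbered by replicate, and lines are geometric means of 3 libraries. Ugt2b35 lay at 8.78 to 8.95 CPM in NC, at 0.501 to 2.84 CPM in MC and at 4.88 to 9.08 CPM in LRWE, and Sult1a1 and Sult1d1 were lowest in MC 2 (28.2 and 59.98 CPM).

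Of the 12 SULT genes, 8 were tested, none passed in MC against NC, and Sult5a1 alone fell in LRWE against NC. That was 12.5% of the tested SULT genes, near the 10.0% of all genes tested. Sult1b1, which sulfates phenols and thyroid hormones, was at 372, 345 and 265 CPM in NC, at 183, 173 and 234 in MC and at 247, 401 and 311 in LRWE. MC lay below both other groups with no overlap. Neither MC against NC (-0.73 ± 0.22, adjusted p = 0.0842) nor LRWE against MC (0.70 ± 0.22, adjusted p = 0.164) passed, and DESeq2, limma-voom with quality weights and edgeR without LRWE 1 called the second one higher. The 95% interval of its log2 fold change in LRWE against NC (-0.53 to 0.47) included 0. Sult1d1, which sulfates catecholamines in mouse, was at 432, 409.8 and 277 CPM in NC, at 303, 59.98 and 215 in MC and at 286, 681 and 524 in LRWE, with 1.37 ± 0.53 for LRWE against MC (adjusted p = 0.183). Sult1a1, the phenol sulfotransferase, was at 166, 134 and 136 CPM in NC, at 139.7, 28.2 and 85.5 in MC and at 118, 235 and 220.5 in LRWE, with 1.18 ± 0.49 (adjusted p = 0.196). MC 2 was the lowest library for both genes, and MC overlapped LRWE.

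Sult1c2 was at 10.4, 8.90 and 10.7 CPM in NC, at 7.36, 6.92 and 11.1 in MC and at 17.5, 11.2 and 17.01 in LRWE. LRWE lay above both other groups by a small margin, with 0.85 ± 0.27 against MC (adjusted p = 0.164), and DESeq2 and limma-voom with quality weights called it higher there. Sult2b1, which sulfates cholesterol, was at 49.6, 48.8 and 31.8 CPM in NC, at 29.2, 16.2 and 40.7 in MC and at 39.6, 87.7 and 44.6 in LRWE, with 0.996 ± 0.39 for LRWE against MC (adjusted p = 0.186). Sult4a1, known from brain, was at 13.1, 15.1 and 16.4 CPM in NC, at 61.2, 68.6 and 50.2 in MC and at 50.4, 6.69 and 22.8 in LRWE. MC lay above NC with no overlap, LRWE 1 matched MC and LRWE 2 lay below NC, and neither MC against NC (2.01 ± 0.57, adjusted p = 0.0686) nor LRWE against MC (-1.17 ± 0.55, adjusted p = 0.233) passed. limma-voom with quality weights and edgeR without LRWE 1 called Sult4a1 lower in LRWE than in MC. Sult5a1 was at 0.209, 0.354 and 0.302 CPM in NC, at 0.184, 0.292 and 0.664 in MC and at 0 in each library of LRWE. It was at least 16.9-fold lower in LRWE than in NC (adjusted p = 0.0254), a call lost when NC 1, NC 2, NC 3 or LRWE 3 was left out (adjusted p up to 0.0875), and at least 22.4-fold lower than in MC without passing (adjusted p = 0.164), where limma-voom with quality weights and edgeR without LRWE 1 called it lower.

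A shared shape across libraries was seen after the values were examined. In 15 of the 72 tested members (20.8%), MC 1 and MC 3 lay above all NC libraries and MC 2 did not, beside 6.65% of all genes tested. These were Cyp2c55, Cyp2c66, Cyp2d26, Cyp2j6, Cyp2s1, Cyp3a25, Cyp3a44, Cyp4b1, Cyp4f40, Ugt1a1, Ugt1a6b, Ugt2b5, Ugt2b36, Ugt2b38 and Ugt8a. MC 2 was the lowest MC library in 40 of 72 members (55.6%), beside 35.0% of all genes tested. In the list of 62 partner genes read below, 16 (25.8%) had the first shape. MC 2 was the lowest MC library in 39 of the 62 (62.9%), so neither trait is particular to the members. MC 2 was also the MC library with the most Hoxb13 and the least Osr2, and the part of this difference in the members was not tested. The fibroblast and neutrophil sums, which were highest in MC 2, stand beside it likewise. Ly6g made up 234 of the 248 CPM of the neutrophil sum in MC 2. S100a8 and S100a9 were also highest in MC 2, and Cxcr2 was highest in MC 3. Without MC 2, edgeR called 9 members higher (11.7% of 77 tested, beside 2.45% of all genes) and 7 lower (9.09%, beside 2.37%) in MC against NC. The 9 were Cyp2c65, Cyp2c66, Cyp2d26, Cyp2j6, Cyp3a44, Cyp4b1, Cyp4x1, Ugt1a1 and Ugt2b5. Without MC 2 and LRWE 2, the libraries with the lowest quality weights, 14 rose and 13 fell in MC (35.1% of the 77 tested, beside 14.7% of all genes, of which 8.29% higher and 6.36% lower). In LRWE against NC, 13 rose and 11 fell in that fit (31.2%, beside 12.1%, of which 7.08% higher and 4.99% lower).

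The genes that supply these enzymes and act beside them were read from a list of 63 symbols, 62 of which were in the table and all of these tested. In MC against NC 1 rose and 5 fell, which is 9.68% of the list beside the background of 6.37%. The retinoid X receptor Rxra, the partner of PXR and CAR on DNA, rose (0.74 ± 0.17, adjusted p = 0.0341). Alcohol dehydrogenase Adh1 fell (-2.82 ± 0.35, adjusted p = 0.00521), from 1657 to 235 CPM. The epoxide hydrolases Ephx1 and Ephx2 and the glutathione transferases Gstm1 and Gstt1 fell by 0.79, 1.63, 1.22 and 1.17 on the log2 scale (adjusted p = 0.0459, 0.0182, 0.00762 and 0.00866).

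In LRWE against NC, 16 of the 62 rose and 7 fell (37.1%, beside 10.0% of all genes tested). Of the P450 electron donors, Cyb5b (1.15 ± 0.23) and Pgrmc1 (1.13 ± 0.26) rose, and Por did not pass (0.54 ± 0.25, adjusted p = 0.200). For the UGT cofactor, Ugp2 (1.11 ± 0.22) and the endoplasmic reticulum transporter Slc35d1 (2.84 ± 0.52, adjusted p = 0.0141) rose, and Ugdh did not pass (1.201 ± 0.59, adjusted p = 0.230). For the SULT cofactor, Papss2 was at 146, 143 and 131 CPM in NC, at 363, 90.5 and 346 in MC and at 454, 899.8 and 739.7 in LRWE. Papss2 rose (2.31 ± 0.48, adjusted p = 0.0211), with every LRWE library above every other library, as did Bpnt1 (1.09 ± 0.25), which degrades the spent cofactor. The bile acid receptor Nr1h4 (1.89 ± 0.40) and Rxra (1.43 ± 0.17, adjusted p = 0.00413) rose, while Nr1i2 (0.59 ± 0.28, adjusted p = 0.212) and Ahr (-0.83 ± 0.40, adjusted p = 0.220) did not pass. The values of Nr1i3 (CAR) are given after they were seen. Nr1i3 was at 21.5, 22.3 and 14.5 CPM in NC, at 1.38, 4.82 and 5.68 in MC and at 4.70, 7.74 and 2.26 in LRWE, so every DSS library lay below every NC library. Neither LRWE against NC (-1.99 ± 0.57, adjusted p = 0.0602) nor MC against NC (-2.29 ± 0.58, adjusted p = 0.0506) passed for Nr1i3. Of the 32 other phase I and II enzymes, 8 rose (Aldh1a1, Akr1b8, Ces1f, Ces1g, Ces2e, Gstk1, Gstp1 and Nqo1) and 7 fell (Adh1, Ephx1, Fmo1, Fmo2, Fmo4, Gstm1 and Gstt1). The carboxylesterase Ces1g went from 3.26 to 105 CPM (5.01 ± 0.99, adjusted p = 0.0182), and the flavin monooxygenase Fmo2 from 127 to 18.2 CPM (-2.80 ± 0.71, adjusted p = 0.0398). For LRWE against MC no partner gene passed, and 40 of 62 (64.5%) had an unadjusted p under 0.05, beside 23.6% of all genes. DESeq2 called 19 of them higher (30.6%, beside 4.72% of all genes) and none lower there, and limma-voom with quality weights 20 (32.3%, beside 5.29%) and none.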

How the data were processed

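Colon RNA of 9 mice was compared between 3 groups of 3. The authors deposited a table of 36256 genes with a count column and an FPKM column per library, per the file headers. The deposited counts are whole numbers and were treated as estimated counts, since the submitters' processing notes include StringTie and no source states how the counts were made, and the deposited FPKM values are scaled for library size and transcript length. The tools in those notes are HISAT2 2.0.4, cutadapt 1.9, StringTie 1.3.4d and edgeR, with a build (hg38) that cannot be that of mouse identifiers, so none is assigned. No library pair was identical.

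Counts were tested in edgeR 4.0.16 (R 4.3.3): filterByExpr kept 21767 genes, TMM scaled libraries, and 1 quasi-likelihood model, with 1 mean for each group, took in all 9 libraries. Benjamini-Hochberg adjustment ran over all genes tested, at 0.05. SE is the absolute log2 fold change over the root of F, with a median of 0.415 for MC against NC. Where a group was at 0, the fold was computed against 3 counts summed over that group, and "at least" covers counting error only, since no molecular identifiers are named and reads may not be independent molecules. Fold changes are differences between group means, and p-values set these against the spread between mice within the groups. Medians were the same with members at 0 in a group set at their bound. DESeq2 1.42.0, limma 3.58.1 (voom, and trend on log2 FPKM), other scalings and filters, 2-group fits, a replicate block and fits without 1 library were alternatives, and fits without MC 2 and LRWE 2 together were added after the data were seen. The procedure was tested on simulated data. Promoter windows and shared transcript windows came from RefSeq (GRCm38.p6) and GENCODE M21. Of the 110 members, 91 had a promoter.

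Named were members called in any comparison, the 5 most abundant per family in NC, the 3 smallest p-values per direction where under 6 passed, and 21 members with a known role (44 in all). The members and lists were chosen with earlier results of these data known. Other genes were named after their values were seen and are marked so.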

Additional observations from a re-analysis of the deposited data

How the results depend on the processing

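Scaling by RLE or upper quartiles and the stricter filter kept the counts of called members, all genes and partner genes within 1.5 times. DESeq2 called 8 members higher, 16 members lower, 2021 genes higher, 1747 genes lower, 9 partner genes higher and 11 partner genes lower for MC against NC, and 5 members higher, 3 members lower, 1027 genes higher, 974 genes lower and 19 partner genes higher for LRWE against MC, and 15 members higher, 2286 genes higher and 2113 genes lower for LRWE against NC. limma-voom with quality weights called 6 members higher, 18 members lower, 2714 genes higher, 2491 genes lower, 12 partner genes higher and 13 partner genes lower for MC against NC, and 5 members higher, 4 members lower, 1152 genes higher, 1749 genes lower and 20 partner genes higher for LRWE against MC, and 2898 genes higher, 3244 genes lower and 30 partner genes higher for LRWE against NC. limma-trend on log2(FPKM + 1) called 1 member higher, 16 members lower, 1228 genes higher and 4 partner genes higher for MC against NC, and 1381 genes lower for LRWE against NC. limma-trend on log2(FPKM + 0.1) called 1 member higher, 14 members lower, 928 genes higher and 3 partner genes higher for MC against NC, and 1 gene lower for LRWE against MC, and 14 members higher for LRWE against NC. Fits on the 2 groups compared alone gave 16 members lower, 2197 genes higher, 1584 genes lower, 5 partner genes higher and 10 partner genes lower for MC against NC, and 14 members higher for LRWE against NC. Without a filter there were 0 partner genes higher for MC against NC, and 5 members higher and 821 genes higher for LRWE against NC. Scaling by library totals gave 3 partner genes higher for MC against NC. The block on replicate number gave 0 members higher, 4 members lower, 113 genes higher, 193 genes lower, 0 partner genes higher and 3 partner genes lower for MC against NC, and 1 member higher, 4 members lower, 350 genes higher, 250 genes lower, 2 partner genes higher and 4 partner genes lower for LRWE against NC. The member median for LRWE against MC was 0.088 under limma-trend on log2(FPKM + 1). Leaving out libraries gave 0 to 14 members higher, 4 to 16 members lower, 101 to 1920 genes higher, 176 to 1433 genes lower, 0 to 12 partner genes higher and 3 to 10 partner genes lower for MC against NC. Leaving out libraries gave 0 to 2 members higher, 0 to 4 members lower, 0 to 950 genes higher, 0 to 1486 genes lower and 0 to 10 partner genes higher for LRWE against MC. Leaving out libraries gave 0 to 15 members higher, 3 to 13 members lower, 256 to 1659 genes higher, 203 to 1176 genes lower, 2 to 24 partner genes higher and 4 to 8 partner genes lower for LRWE against NC. Without MC 2 and LRWE 2 together, MC against NC had 14 members higher and 13 lower, and LRWE against NC 13 and 11. The labels do not say whether equal replicate numbers mark a shared cage, batch or day. Deviations of same-numbered libraries from their group means correlated at -0.16 to 0.03. With 3 libraries per group, these values cannot exclude a pairing. The block above shares only a number. 

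In named members, 47 fitted fold changes changed sign, none of them called in the reported fit, and the cause was not tested. For MC against NC, the range over fits leaving out libraries crossed 0 for Cyp26b1 (-0.73 to 0.041), Cyp27b1 (-1.96 to 1.25), Cyp2r1 (-0.66 to 0.38), Cyp4f14 (-0.57 to 0.37), Cyp7b1 (-0.64 to 1.25) and Sult5a1 (-0.27 to 0.72). For LRWE against MC, the range over fits leaving out libraries crossed 0 for Cyp26b1 (-2.52 to 0.036), Cyp27b1 (-5.29 to 1.59), Cyp2c68 (-0.034 to 0.86), Cyp2d10 (-0.52 to 0.36), Cyp2d34 (-0.52 to 0.066), Cyp2d9 (-1.04 to 0.35), Cyp4f39 (-1.10 to 1.80) and Cyp7b1 (-1.94 to 0.45). For LRWE against NC, the range over fits leaving out libraries crossed 0 for Cyp27b1 (-6.002 to 1.02), Cyp2e1 (-0.32 to 2.54), Sult1b1 (-0.23 to 0.12), Sult2b1 (-0.045 to 0.60) and Sult4a1 (-0.012 to 1.301). The sign also changed for Cyp27b1 under replicate block (1.39, MC against NC), Cyp2r1 under upper-quartile factors (-0.036, MC against NC), Cyp2r1 under no filter on low counts (-0.0033, MC against NC), Cyp2r1 under limma-trend on log2(FPKM + 0.1) (-0.037, MC against NC), Cyp2r1 under replicate block (-0.41, MC against NC), Cyp4f14 under library totals only (0.0066, MC against NC), Cyp4f14 under limma-voom with quality weights (0.087, MC against NC), Cyp7b1 under limma-voom with quality weights (-0.23, MC against NC), Cyp27b1 under limma-voom with quality weights (1.63, LRWE against MC), Cyp4f39 under limma-voom with quality weights (-1.29, LRWE against MC), Cyp7b1 under limma-voom with quality weights (0.069, LRWE against MC) and Cyp27b1 under limma-voom with quality weights (1.08, LRWE against NC). Calls were lost in 163 and gained in 111 other values of named members, and 4 of 11 calls for MC against NC and 3 of 20 for LRWE against NC held in all 9 fits without 1 library. With 3 mice per group at 59042063 to 65042857 counts per library, the 95% interval around a fitted log2 value reached 0.94 to each side in the median gene of MC against NC.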
